A study of Rattus norvegicus and Mus musculus with 34 samples.

Results

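The CC and CXC chemokine genes were described in rat jaw tissue during bone healing and in a mouse macrophage line. Members were all genes whose symbol is Ccl or Cxcl followed by a number and, in the mouse, an optional letter. The rule found 32 of 20022 genes in the rat tables and 36 of 51912 genes in the mouse table, and 28 symbols were in both. No measured value entered the rule. Each member was placed by the leukocyte it is best known to attract: neutrophils (4 in the rat, 5 in the mouse), monocytes (7 and 8), lymphocytes (9 and 8), eosinophils (3 and 3), or as a homeostatic chemokine (9 and 12).

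Chemokines are small secreted proteins that bind G protein-coupled receptors on leukocytes and guide their movement along a gradient. The CXC members that attract neutrophils and the CC members that attract monocytes are induced soon after injury by bacterial products and cytokines. The interferon-induced CXC members draw activated lymphocytes, and homeostatic members position cells in resting tissue and lymphoid organs. Calcitonin gene-related peptide (CGRP) is a neuropeptide that sensory nerve endings release.

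In vivo, male wild-type Sprague-Dawley rats of 6 to 8 weeks received a bone defect at the buccal side of the mandible and penicillin afterwards. In sensory nerve- rats a segment of the inferior alveolar nerve, the sensory nerve of the lower jaw, was also removed, and in sensory nerve+ rats it was left intact. Healing tissue, labelled as mixed cells, was sequenced on days 3, 7 and 14. Each arm had 4 rats a day, except for 3 sensory nerve+ rats on day 3. Replicate numbers below name a rat within its own group only. Every group carried the defect, and uninjured tissue was not analysed here. In vitro, RAW264.7 cells, a mouse macrophage line, were stimulated for 6 h with 100 ng/ml lipopolysaccharide (LPS, a component of the bacterial wall), without CGRP in 6 samples and with 10 nM CGRP in 5 samples. All 11 macrophage samples had received LPS, so an unstimulated level was not measured. P-values measure the spread between these samples, and the labels do not say whether the macrophage samples came from separate cultures.

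Rat libraries held 14854648 to 18742491 counts (median 17783047) and macrophage libraries 55614185 to 71538840 reads (median 61992328). Levels are given in CPM, a count relative to the total of its library after TMM scaling (trimmed mean of M values), and a difference is called at a Benjamini-Hochberg adjusted p under 0.05 over all genes tested. The 2 haemoglobin genes took 0.199% to 38.5% of the counts of a rat library. Skeletal muscle markers (8 of 8 genes in the table) summed to 18.6 to 392 CPM in the 7 rats of day 3 and to 206 to 31350 CPM in the 16 later rats. Macrophage markers (8 of 8 in the table) summed to 1880 to 12243 CPM over all rats. The part of blood and muscle in the results was not tested. A separate table held the 4 sensory nerve- libraries of day 7, so in each comparison with them a difference between tables and one between groups cannot be told apart. In bulk tissue, fewer cells of a type and less RNA per cell cannot be told apart.

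Of the 32 rat members, 27 passed the filter on low counts in at least 1 of 11 comparisons and 18 passed in all of them. The 5 that never passed had few counts over all 23 rats: Ccl26 had 2, Ccl1 had 4, Ccl25 had 7, Ccl19 had 26 and Ccl28 had 66. A member that passed only through the group where it was high had to differ, so counts below are given with the number tested and are not shares of all members.

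The neutrophil chemokines Cxcl1, Cxcl2 and Cxcl3, which act through the receptor Cxcr2, were higher on day 3 than on day 7 in both arms. Cxcl1 stood at 23.2, 1.43 and 4.33 CPM in the 3 sensory nerve+ rats on day 3, and at 0.491, 0.261, 0.171 and 0.0844 CPM in the 4 rats of day 7. The days did not overlap, and replicate 1 of day 3 was well above the other 2. The fitted log2 fold change was 5.14 ± 1.06 (SE, edgeR adjusted p = 0.0356). Without the nerve, Cxcl1 stood at 5.78, 3.33, 0.980 and 9.15 CPM on day 3 and at 0.618, 0.489, 0.147 and 0.642 CPM on day 7, again without overlap, with a log2 fold change of 3.33 ± 0.73 (SE, edgeR adjusted p = 0.0297).

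Cxcl2, also known as macrophage inflammatory protein 2, stood at 59.4, 4.39 and 10.9 CPM in the sensory nerve+ rats of day 3 against 0.785, 0.469, 0.0856 and 1.69 CPM on day 7. Without the nerve it stood at 15.9, 2.86, 1.03 and 25.9 CPM on day 3 against 0.281, 0.326, 0.440 and 1.09 CPM on day 7. The days were apart in sensory nerve+ rats and overlapped at 1 rat of each day in sensory nerve- rats. The log2 fold change was 5.06 ± 1.16 in sensory nerve+ rats (SE, edgeR adjusted p = 0.0492) and 4.41 ± 1.06 in sensory nerve- rats (SE, edgeR adjusted p = 0.0387).

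Cxcl3, the close paralog of Cxcl2, stood at 69.3, 3.82 and 14.0 CPM on day 3 with the nerve and at 12.7, 3.10, 1.91 and 25.9 CPM without it. On day 7 no rat was above 1.94 CPM with the nerve or above 0.706 CPM without it, so neither arm had overlap. The log2 fold change was 5.09 ± 1.15 (SE, edgeR adjusted p = 0.0470) and 4.34 ± 0.90 (SE, edgeR adjusted p = 0.0255) in the 2 arms. Without sensory nerve+ replicate 1 of day 3, the log2 fold change in that arm was 3.43 for Cxcl1, 3.36 for Cxcl2 and 3.38 for Cxcl3, and none of the 3 was called. Of the 7 fits with 1 sensory nerve+ rat left out, 1 kept the call of each gene. Among rats of days 7 and 14 some of these genes were too low to be tested, so they entered the comparison with day 7 through day 3, where they were high, and had to differ there. Cxcl1, Cxcl2 and Cxcl3 are similar in sequence, and the deposited expected counts share out reads that match several genes, so how the counts divide among them is uncertain. Cxcl6, the remaining neutrophil member, which was picked after its values were seen, ranged from 1.39 to 31.7 CPM on day 3 and from 0.0844 to 2.66 CPM on day 7 in sensory nerve+ rats, and its log2 fold change of 3.14 ± 1.36 did not pass (SE, edgeR adjusted p = 0.209).

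Neutrophil markers (8 of 8 in the table, none at 0 in a whole group) summed to 190 to 319 CPM on day 3, 14.6 to 549 CPM on day 7 and 86.0 to 7135 CPM on day 14 in sensory nerve+ rats. Without the nerve the sums were 60.3 to 911, 32.4 to 304 and 151 to 4440 CPM. The median marker sum was highest on day 14 in both arms, at 1019 and 884 CPM, when Cxcl1, Cxcl2 and Cxcl3 were low in most rats. Cxcl6 was not low there in sensory nerve- rats, at 0.733 to 12.2 CPM (median 5.84) against a median of 4.05 CPM on day 3. In sensory nerve+ rats its median was 1.67 CPM on day 14 and 4.23 CPM on day 3. The single markers did not all follow the sum. In sensory nerve- rats 3 of 8 were higher on day 3 than on day 14, and edgeR called 1, which was lower on day 3. In sensory nerve+ rats 0 of 8 were higher on day 3 and 0 were called. Markers of oral and dental epithelium (7 of 7 in the table, with Krt13 at 0 in 4 of the 6 groups) summed to 40.3 to 586 CPM on day 3 and 1.01 to 9.97 CPM on day 7 in sensory nerve- rats. There edgeR called 5 of 5 tested higher on day 3, against 10.4% of all genes in either direction. With the nerve the sums were 2.17 to 1032 and 1.03 to 410 CPM, and 5 of 5 tested were above 0. Between the arms on day 7, 1 of the 7 markers passed the filter. Most of the 5 thus entered through day 3, where they were high, and had to differ. The part of neutrophils and epithelium in these results was not tested.

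Promoters are shown for 3 of the members that were called higher on day 3 in at least 1 comparison of each arm. Ccl12 was also such a member and had a sequence, which is not shown. RefSeq promoter sequences of the assembly GRCr8, which is not the assembly the reads were aligned to, were found for 26 of the 32 rat members, and Cxcl3 and Ccl2 were not among them. The 250 bases before the transcription start are given 5′ to 3′ on the gene's own strand, for Cxcl1 at chr14:17479322-17479571 (minus strand), Cxcl2 at chr14:17467256-17467505 (minus strand) and Ccl7 at chr10:67513845-67514094 (plus strand). Capitals mark matches to the kappaB consensus in Cxcl1 and Cxcl2, and in Ccl7 matches to TGANTCA and to TATAAA, the TATA box. TGANTCA takes any central base and so is wider than the motif of AP-1.
Cxcl1: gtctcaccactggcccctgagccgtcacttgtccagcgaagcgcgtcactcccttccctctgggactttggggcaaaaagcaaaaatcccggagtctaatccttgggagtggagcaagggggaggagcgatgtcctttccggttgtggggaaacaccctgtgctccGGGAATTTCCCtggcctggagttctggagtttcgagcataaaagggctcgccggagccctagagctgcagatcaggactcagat
Cxcl2: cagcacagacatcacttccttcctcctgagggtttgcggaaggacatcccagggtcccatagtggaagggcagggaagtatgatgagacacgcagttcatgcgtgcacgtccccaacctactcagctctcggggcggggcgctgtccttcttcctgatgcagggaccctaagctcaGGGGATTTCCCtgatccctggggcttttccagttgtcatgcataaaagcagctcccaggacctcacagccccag
Ccl7: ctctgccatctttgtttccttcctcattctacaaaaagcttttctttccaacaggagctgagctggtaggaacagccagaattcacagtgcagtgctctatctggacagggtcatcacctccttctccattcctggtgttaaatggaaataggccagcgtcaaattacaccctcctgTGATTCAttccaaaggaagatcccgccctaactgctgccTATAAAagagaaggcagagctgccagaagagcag
The kappaB consensus, the letters bound by NF-kappaB, was searched on both strands, and in Cxcl1 and Cxcl2 a match on each strand overlapped the other with a shift of 1 base. It lay 84 to 74 bases before the start in Cxcl1 and 74 to 64 bases before the start in Cxcl2. All 3 neutrophil members with a sequence held it, and 7 of 26 members did (26.9%), against 3.54% of 33469 promoters of the same length. TATAAA on the gene's strand was in 7 of 26 members (26.9%) and 8.06% of all promoters. Ccl12 held TATAAA and no kappaB match. TGANTCA was in 4 of 26 (15.4%) and 6.34%. TTCNNNGAA, a STAT motif, was in 3 of 26 (11.5%) and 7.67%, and the interferon response motif in 2 of 26 (7.69%) and 3.41%. A match is a description of the letters only.

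**Figure D1:**
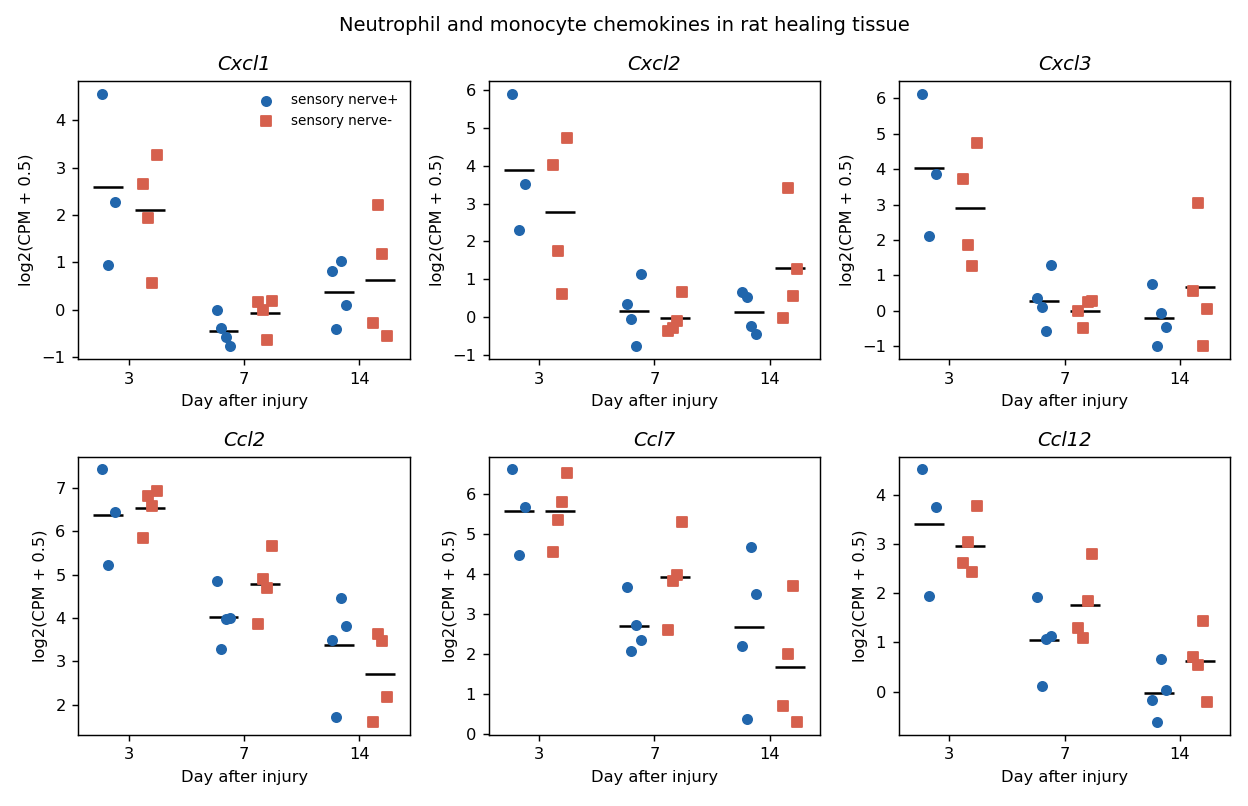
Neutrophil (Cxcl1, Cxcl2, Cxcl3) and monocyte (Ccl2, Ccl7, Ccl12) chemokines in each rat. The y axis is log2(CPM + 0.5) and the x axis the day after injury, blue circles are sensory nerve+ rats, red squares sensory nerve- rats and black bars group means. All 6 genes have their highest group mean on day 3 in both arms, and the arms overlap on every day for each of the 6.

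Among the monocyte chemokines, edgeR called Ccl2, Ccl7 and Ccl12, which act through the receptor Ccr2, higher on day 3 than on a later day. Ccl2, which encodes monocyte chemoattractant protein 1, stood at 172, 36.9 and 87.1 CPM in sensory nerve+ rats on day 3 and at 28.2, 9.28, 15.2 and 15.5 CPM on day 7. In the other arm it stood at 57.4, 111, 95.5 and 122 CPM on day 3, at 14.1, 29.3, 25.3 and 50.05 CPM on day 7, and at 2.52, 11.9, 10.5 and 4.03 CPM on day 14. In that arm no 2 days overlapped, although days 7 and 14 did not differ past the threshold (edgeR adjusted p = 0.114). The log2 fold change from day 7 to day 3 was 2.48 ± 0.57 in sensory nerve+ rats (SE, edgeR adjusted p = 0.0483) and 1.72 ± 0.39 in sensory nerve- rats (SE, edgeR adjusted p = 0.0332). Against day 14 it was 3.77 ± 0.53 in sensory nerve- rats (SE, edgeR adjusted p = 0.00388), and in sensory nerve+ rats 2.99 ± 0.72, which did not pass (SE, edgeR adjusted p = 0.0561).

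Ccl7, monocyte chemoattractant protein 3, stood at 97.2, 21.5 and 50.5 CPM in sensory nerve+ rats on day 3 and at 12.2, 3.75, 6.12 and 4.64 CPM on day 7, with a log2 fold change of 3.02 ± 0.60 (SE, edgeR adjusted p = 0.0325). Sensory nerve- rats had 23.04, 40.5, 55.2 and 91.9 CPM on day 3 and at 1.14, 3.49, 12.6 and 0.733 CPM on day 14, with a log2 fold change of 3.60 ± 0.90 (SE, edgeR adjusted p = 0.0249). Neither of these pairs of groups overlapped. Days 3 and 7 without the nerve overlapped and did not pass, at 1.55 ± 0.61 (SE, edgeR adjusted p = 0.141), and so did days 3 and 14 with the nerve, at 2.44 ± 1.01 (SE, edgeR adjusted p = 0.169). Ccl12, a rodent relative of Ccl2, was the member with the smallest p between days 3 and 14 in sensory nerve+ rats: 22.4, 3.34 and 12.9 CPM against 0.383, 0.1495, 1.09 and 0.516 CPM, a log2 fold change of 4.54 ± 0.82 (SE, edgeR adjusted p = 0.0395). For sensory nerve- rats this difference was 2.78 ± 0.56 (SE, edgeR adjusted p = 0.0128).

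The other monocyte members were not called by edgeR in any comparison of days, while DESeq2 called Ccl3, Ccl4, Ccl6 and Ccl9 in at least 1. Ccl9, a ligand of Ccr1, had its highest median on day 7 in both arms and ranged from 19.3 to 70.2 CPM on day 3, 58.6 to 251 CPM on day 7 and 14.3 to 87.6 CPM on day 14 in sensory nerve+ rats, and from 8.63 to 79.3, 50.5 to 431 and 36.5 to 75.9 CPM in sensory nerve- rats. The days overlapped in each arm, and the log2 fold change of day 3 against day 7 was -1.79 ± 0.59 (SE, edgeR adjusted p = 0.118) and -2.05 ± 0.85 (SE, edgeR adjusted p = 0.158). Ccl6, another ligand of Ccr1, had its highest median on day 14, at 15.97 to 124 CPM in sensory nerve+ rats and 17.5 to 141 CPM in sensory nerve- rats. Its log2 fold change of day 3 against day 14 in sensory nerve- rats was -2.06 ± 0.64 (SE, edgeR adjusted p = 0.0505). Ccl3 and Ccl4, the macrophage inflammatory proteins of the CC family, ranged from 7.27 to 83.4 CPM and from 0.328 to 3.86 CPM over all rats.

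Macrophage markers summed to 4927 to 7803, 2153 to 6306 and 1880 to 10671 CPM on days 3, 7 and 14 in sensory nerve+ rats, and to 3836 to 7706, 2748 to 12243 and 2989 to 5885 CPM in sensory nerve- rats. The sums overlapped between days throughout. Of the 8 markers, edgeR called 3 higher on day 3 than on day 14 in sensory nerve- rats, where it called 23.5% of all genes. In sensory nerve+ rats it called 2 higher, against 5.78% of all genes. Between days 3 and 7 it called 1, lower on day 3, in sensory nerve- rats and 0 in sensory nerve+ rats. The part of these cells in the results was not tested.

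Among the lymphocyte members, Cxcl9, an interferon-induced ligand of Cxcr3, was low on day 3 in both arms. It passed the filter in 10 of the 11 comparisons. Against day 3 it entered through the later day, where it was high, and had to differ there. It stood at 0.788, 0.0955 and 0.567 CPM in sensory nerve+ rats on day 3 and at 11.2, 9.49, 2.31 and 10.2 CPM on day 7, with a log2 fold change of -4.15 ± 0.85 (SE, edgeR adjusted p = 0.0350). Sensory nerve- rats had 0.408, 0.333, 0.233 and 0.431 CPM on day 3, at 26.4, 3.37, 3.37 and 1.92 CPM on day 7 and at 2.03, 1.97, 4.27 and 2.11 CPM on day 14. Every later rat of that arm was above every rat of day 3. Its log2 fold changes of day 3 against days 7 and 14 were -4.63 ± 0.97 (SE, edgeR adjusted p = 0.0259) and -2.83 ± 0.40 (SE, edgeR adjusted p = 0.00397).

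Ccl5, which is made by T cells and other cells and attracts T cells, was highest on day 14. Without the nerve it stood at 7.18, 5.10, 2.15 and 4.79 CPM on day 3, at 3.26, 13.9, 2.20 and 8.98 CPM on day 7 and at 111, 8.33, 58.3 and 82.5 CPM on day 14. Day 14 lay above day 3 without overlap, and replicate 2 of day 14 was close to the earlier days. The log2 fold change of day 3 against day 14 was -3.74 ± 0.74 in sensory nerve- rats (SE, edgeR adjusted p = 0.0123) and -1.52 ± 0.40 in sensory nerve+ rats, which did not pass (SE, edgeR adjusted p = 0.0662). T cell markers (6 of 6 in the table, none at 0 in a whole group) summed to 15.4 to 42.8, 16.5 to 56.8 and 56.8 to 441 CPM on the 3 days in sensory nerve- rats, and to 34.4 to 44.8, 5.86 to 102 and 43.0 to 117 CPM in sensory nerve+ rats. Their part in the change of Ccl5 was not tested.

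Ccl22, which attracts Ccr4-bearing T cells, had its highest value in a sensory nerve- rat of day 7, at 22.1 CPM, where the other 3 stood at 1.46, 1.03 and 7.53 CPM. Its log2 fold change of day 7 against day 14 in that arm was 3.01 ± 0.97 (SE, edgeR adjusted p = 0.138). Cxcl16, a membrane-bound ligand of Cxcr6, ranged from 31.8 to 59.9 CPM on day 3, 39.0 to 179 CPM on day 7 and 25.0 to 63.8 CPM on day 14 over both arms. It was called in no comparison by edgeR, and by DESeq2 between days 3 and 7 in sensory nerve- rats.

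Ccl11, eotaxin 1, the ligand of the eosinophil receptor Ccr3, also rose after day 3. It stood at 0.117, 0.953, 0.606 and 0.969 CPM in sensory nerve- rats on day 3 and at 6.57, 1.14, 3.71 and 8.598 CPM on day 7, with a log2 fold change of -2.88 ± 0.76 (SE, edgeR adjusted p = 0.0492). In sensory nerve+ rats the days did not overlap either, at 0.0955 to 0.657 CPM and 1.33 to 5.25 CPM, but the difference of -3.64 ± 0.89 did not pass (SE, edgeR adjusted p = 0.0585). Ccl24, eotaxin 2, had the opposite sign, with a log2 fold change of day 3 against day 7 of 1.96 ± 0.64 in sensory nerve+ rats that did not pass (SE, edgeR adjusted p = 0.114).

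Of the homeostatic members, Cxcl13, the ligand that draws B cells to follicles, stood at 0.525, 1.86, 2.01 and 1.29 CPM in the sensory nerve- rats of day 3, at 5.73, 5.17, 16.1 and 9.18 CPM on day 7 and at 3.25, 66.4, 12.05 and 5.77 CPM on day 14. Neither later day overlapped with day 3. The log2 fold changes were -2.64 ± 0.53 against day 7 (SE, edgeR adjusted p = 0.0239) and -3.89 ± 1.02 against day 14 (SE, edgeR adjusted p = 0.0290). Ccl21, a lymphatic ligand of Ccr7, stood at 0.700, 0.0476, 0.280 and 0.377 CPM on day 3 and at 1.38, 19.4, 7.23 and 1.28 CPM on day 14 in that arm, a log2 fold change of -4.35 ± 1.09 (SE, edgeR adjusted p = 0.0256). B cell markers (5 of 6 in the table) summed to 4.62 to 86.2 CPM on day 3 and 99.3 to 607 CPM on day 14 in sensory nerve- rats, and their part was not tested. Cxcl12, the ligand of Cxcr4, ranged from 45.1 to 751 CPM over all rats and Cxcl14, an epithelial and stromal chemokine, from 1.05 to 40.2 CPM, and edgeR called neither in any comparison of days, while DESeq2 called Cxcl12 between days 3 and 14 in sensory nerve- rats.

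**Figure D2:**
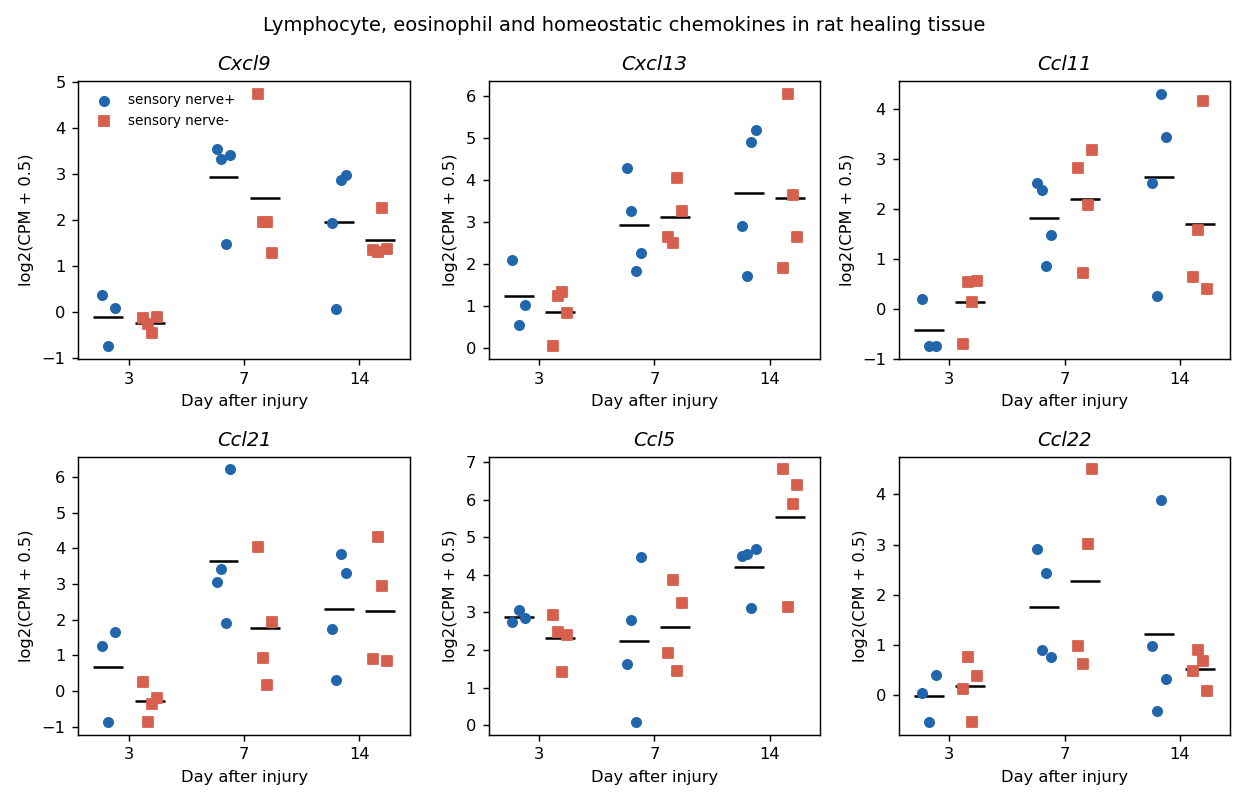
Lymphocyte (Cxcl9, Ccl5, Ccl22), eosinophil (Ccl11) and homeostatic (Cxcl13, Ccl21) chemokines in each rat. The y axis is log2(CPM + 0.5) and the x axis the day after injury, with blue circles for sensory nerve+ rats, red squares for sensory nerve- rats and black bars for group means. Cxcl9 has its lowest group mean on day 3 in both arms, and 3 of the 4 sensory nerve- rats of day 14 are above all other rats for Ccl5.

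Counted over all members, days 3 and 7 differed in 6 of 25 members tested in sensory nerve+ rats (5 higher and 1 lower on day 3), where 6.67% of 15017 genes were called. The groups did not overlap in 11 of the 25 members, against 25.5% of all genes. With 1 rat left out, 0 to 6 members were called: 0 without replicate 1 or 3 of day 3 or replicate 2 or 4 of day 7, 1 without replicate 1 of day 7 and 3 without replicate 3 of day 7. Over these fits 254 to 1547 of all genes were called. DESeq2 called 13 members and 2729 of 20022 genes. Without the nerve the same days differed in 7 of 23 members (4 higher and 3 lower on day 3), where 10.4% of 14578 genes were called, and 6 did not overlap, against 21.6%. Leaving out 1 rat gave 0 calls without replicate 1 or 4 of day 3 or replicate 3 of day 7, 1 without replicate 2 of day 3, 2 without replicate 4 of day 7, 3 without replicate 2 of day 7 and 4 without replicate 3 of day 3 or replicate 1 of day 7. Over these fits 0 to 1359 of all genes were called. DESeq2 called 12 members there and 3224 of 20022 genes. Cxcl1, Cxcl2, Cxcl3, Ccl2 and Cxcl9 were called in both arms, and of these Ccl2 alone passed the filter in all 11 comparisons. The 2 arms share no rat.

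Days 3 and 14 differed in 7 of 22 members in sensory nerve- rats (3 higher and 4 lower on day 3), where 23.5% of 14450 genes were called, and 7 did not overlap, against 26.7%. This count was 4 without replicate 2 of day 3 and 5 to 9 without any other rat. In sensory nerve+ rats these days differed in 2 of 24 members, Ccl12 and Cxcl2, both higher on day 3, where 5.78% of 15065 genes were called, and 7 members did not overlap, against 24.6%. This count was 0 without replicate 1 or 3 of day 3 or replicate 1, 3 or 4 of day 14, 3 without replicate 2 of day 3, and 8 without replicate 2 of day 14. With 1 rat left out, 1619 to 4352 of all genes were called in sensory nerve- rats and 0 to 3134 in sensory nerve+ rats. DESeq2 called 13 members and 4922 of 20022 genes in sensory nerve- rats. In sensory nerve+ rats it called 12 members and 3409 of 20022 genes.

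Between days 7 and 14, edgeR called 0 of 22 members in sensory nerve+ rats, where it called 0.0202% of 14868 genes. The groups overlapped in all 22 members, against 5.73% of genes without overlap. An unadjusted p under 0.05 was found for 3 members, Ccl3 with a log2 fold change of 1.08 ± 0.37 (SE), Ccl12 with 1.72 ± 0.68 and Cxcl12 with -1.08 ± 0.47, and DESeq2 called 0. Of all genes, 1401 had an unadjusted p under 0.05, and DESeq2 called 335 of 20022. Without the nerve edgeR called 0 of 21 members and 0.0138% of 14447 genes, and 1 member, Ccl2, did not overlap, against 12.3% of genes. The smallest p belonged to Ccl5, with a log2 fold change of -3.23 ± 0.85 (SE, edgeR adjusted p = 0.108), and Ccl2 followed with 2.02 ± 0.56 (edgeR adjusted p = 0.114). There 8 members had an unadjusted p under 0.05, as did 3396 of 14447 genes. DESeq2 called 5 members, Ccl2, Ccl5, Ccl9, Ccl22 and Cxcl2, and 1991 of 20022 genes. Without replicate 2 of day 14, edgeR called 2 members. With 1 rat left out, 0 to 812 of all genes were called.

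Transection was compared on each day. On day 3, edgeR called 0 of 23 members and 0% of 14717 genes, 0 members were without overlap, against 1.61% of genes, and 0 members had an unadjusted p under 0.05. The median log2 fold change of sensory nerve- against sensory nerve+ was -0.45 over the members and -0.01 over all genes, and 19 of 23 members were below 0. This median was 0.19 without sensory nerve+ replicate 1, which was the highest of its group in 18 of the 27 members tested when all days were fitted together. The 3 members with the smallest p were Ccl21 (-2.12 ± 1.13), Ccl5 (-0.56 ± 0.38) and Ccl11 (1.26 ± 0.94), each a log2 fold change with its SE and with an edgeR adjusted p of 0.9999.

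On day 7, edgeR called 0 of 23 members and 0% of 14716 genes, and 0 members were without overlap, against 0.781% of genes. An unadjusted p under 0.05 was found for 2 members and 215 genes. The median log2 fold change over the 23 members was 0.47, and it was 0.06 without sensory nerve- replicate 4. All 7 monocyte members had a log2 fold change above 0, with a median of 0.79 against -0.01 over all genes. The 8 macrophage markers were also all above 0, with a median of 0.73 and summed medians of 9717 CPM in sensory nerve- and 5163 CPM in sensory nerve+ rats, and their part in the result was not tested. Ccl4 stood at 0.982, 0.834, 0.514 and 0.675 CPM in sensory nerve+ and at 0.954, 1.196, 3.86 and 1.28 CPM in sensory nerve- rats, a log2 fold change of 1.28 ± 0.52 (SE, edgeR adjusted p = 0.9997). The groups overlapped at 1 rat each, and without sensory nerve- replicate 3 the value was 0.59. Ccl7 stood at 12.2, 3.75, 6.12 and 4.64 CPM against 5.61, 13.6, 15.1 and 38.8 CPM, a log2 fold change of 1.44 ± 0.61 (SE, edgeR adjusted p = 0.9997). With 1 rat left out the log2 fold change of Ccl7 ranged from 0.77 to 1.90.

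On day 14, edgeR called 0 of 22 members and 0% of 14610 genes, while 3 members and 1363 genes had an unadjusted p under 0.05. Without overlap was 1 member, Ccl4, against 3.35% of genes. Ccl4 stood at 0.328, 0.847, 0.517 and 0.859 CPM in sensory nerve+ and at 2.60, 0.957, 1.64 and 0.916 CPM in sensory nerve- rats. This was a log2 fold change of 1.24 ± 0.48 (SE, edgeR adjusted p = 0.519), on 47 and 74 counts in the 2 groups. Ccl5 stood at 21.9, 22.98, 8.16 and 25.3 CPM against 111, 8.33, 58.3 and 82.5 CPM, so that 3 of 4 sensory nerve- rats were above every sensory nerve+ rat, and its log2 fold change was 1.72 ± 0.69 (SE, edgeR adjusted p = 0.519). Cxcl2 stood at 1.09, 0.947, 0.345 and 0.229 CPM against 0.488, 10.2, 0.986 and 1.92 CPM, a log2 fold change of 2.38 ± 0.99 (SE, edgeR adjusted p = 0.519) that was 0.77 without sensory nerve- replicate 2. That rat also stood apart in haemoglobin, with 0.199% of its counts against 20.7% to 38.5% in the other 3 of its group.

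With all 23 rats in 1 fit and the day as a covariate, edgeR called 0 of 27 members and 0% of 15858 genes for transection. Ccl4 was the 1 member with an unadjusted p under 0.05, at a log2 fold change of 0.75 ± 0.34 (SE, edgeR adjusted p = 0.860), followed by Ccl21 at -1.33 ± 0.76 and Cxcl16 at 0.26 ± 0.21. The interaction of transection and day, which asks whether the difference between the arms changes with the day, was called for 0 of 27 members and 0% of 15858 genes by edgeR. Ccl17, a ligand of Ccr4, was the 1 member with an unadjusted p under 0.05 (edgeR adjusted p = 0.998), on 164 counts over all rats, and Ccl4 and Cxcl2 came next with the same adjusted p. DESeq2 called 0 members in each of the 3 days, the pooled comparison and the interaction.

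**Figure D3:**
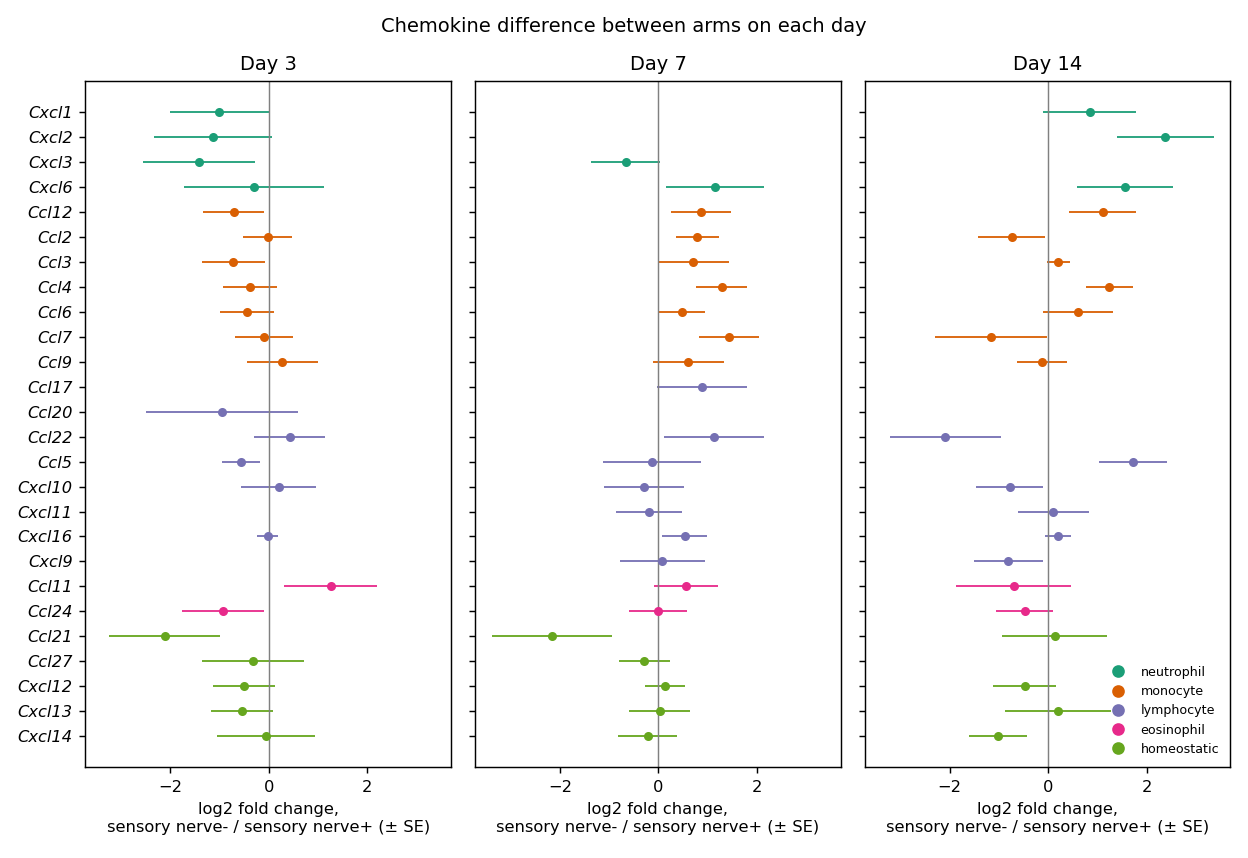
Difference between the arms for each member tested on days 3, 7 and 14. The x axis is the log2 fold change of sensory nerve- over sensory nerve+ with its SE, one row is one gene and the colour gives the leukocyte group. On day 7 all 7 monocyte members are above 0 and on day 3 all 4 neutrophil members are below 0, and no member passed the adjusted threshold on any day.

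The receptors give the other side of the pathway. Of 18 chemokine receptor genes, 15 were tested between days 3 and 14 in sensory nerve- rats, and edgeR called 9 of them lower on day 3, where it called 23.5% of all genes in either direction. Cxcr3, the receptor of Cxcl9, was lower on day 3, with a log2 fold change of -2.88 ± 0.42 (SE, edgeR adjusted p = 0.00433), and so was Cxcr2, the receptor of the neutrophil members, at -3.85 ± 1.01 (SE, edgeR adjusted p = 0.0292). Cxcr2 ranged from 2.14 to 7.29 CPM on day 3 and from 4.17 to 167 CPM on day 14 in that arm. Thus Cxcl9 and its receptor had the same sign between these days, while the neutrophil members, which were not called there, and Cxcr2 had opposite signs. In sensory nerve+ rats 3 of 16 receptors, Ccr4, Cxcr5 and Cxcr6, were called lower on day 3 than on day 14, against 5.78% of all genes in either direction.

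Ackr1 binds many inflammatory CC and CXC chemokines on venules and red cells, and is grouped here with the scavenging receptors. It was lower on day 3 than on days 7 and 14 in both arms. It ranged from 1.05 to 1.70 CPM on day 3 and from 5.18 to 11.8 CPM on day 7 in sensory nerve+ rats, with a log2 fold change of -2.64 ± 0.37 (SE, edgeR adjusted p = 0.0109). Without the nerve the same difference was -2.39 ± 0.42 (SE, edgeR adjusted p = 0.0170). It was the 1 of 5 scavenging receptors called in any comparison. Endothelial markers (5 of 5 in the table) summed to 225 to 444 CPM on day 3 and 289 to 1052 CPM on day 7 over both arms. Of 4 erythroid markers, edgeR called 0 between days 3 and 7 in either arm. The part of either cell type was not tested. Of 4 chemokines outside the naming rule (Pf4, Ppbp, Cx3cl1 and Xcl1), 0 were called by edgeR in any rat comparison. For transection, 0 receptors of either kind were called on any day.

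In the LPS-stimulated macrophages, 16 of 36 members passed the filter of 0.2 CPM in at least 5 libraries. Of the 20 that did not, 12 had 0 reads in all 11 libraries, among them Cxcl5, Cxcl13, Ccl11 and the lymphoid genes Ccl19 and Ccl21a, and 8 had some reads, such as Ccl24 with 10. Cxcl1 had 3 reads in total and Cxcl3 had 109, so that of the neutrophil members Cxcl2 alone was tested, at 144 to 162 CPM. Ccl21a, Ccl21b and Ccl21d, and likewise Ccl27a and Ccl27b, are near-identical copies whose reads cannot be assigned with certainty. Macrophage markers summed to 11382 to 11997 CPM. Of these, C1qa was near 0 in both groups, at no more than 0.036 CPM with LPS alone and at 0 reads with CGRP.

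Set against exon length (GENCODE vM21 on GRCm38, the assembly mm10), the transcript levels in the LPS group ran from Ccl3 at 2080 ± 70.8 CPM per kb (SD, n = 6) to Cxcl9 at 0.0705 ± 0.0205 CPM per kb. Ccl9 followed Ccl3 at 664 ± 16.2, then Ccl2 at 579 ± 17.4, Ccl4 at 433 ± 13.3, Ccl5 at 316 ± 11.98, Cxcl10 at 201 ± 7.38 and Cxcl2 at 73.0 ± 3.51 CPM per kb (SD, n = 6 for each). Neighbours in this order were further apart than their SDs. Cxcl16 at 54.3 ± 1.55, Ccl7 at 47.8 ± 1.1998 and Ccl22 at 39.8 ± 1.51 CPM per kb came next. Of the 5 genes with the highest levels, 4 lie in 1 stretch of chromosome 11, from Ccl5 (chr11:83525778-83530518, minus strand) through Ccl9 (chr11:83572919-83578636, minus strand), Ccl6 (chr11:83587882-83593087, minus strand) and Ccl3 (chr11:83647844-83649355, minus strand) to Ccl4 (chr11:83662584-83664683, plus strand). Ccl6, inside that stretch, stood at 1.55 ± 0.144 CPM per kb, below its neighbours on both sides.

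**Figure D4:**
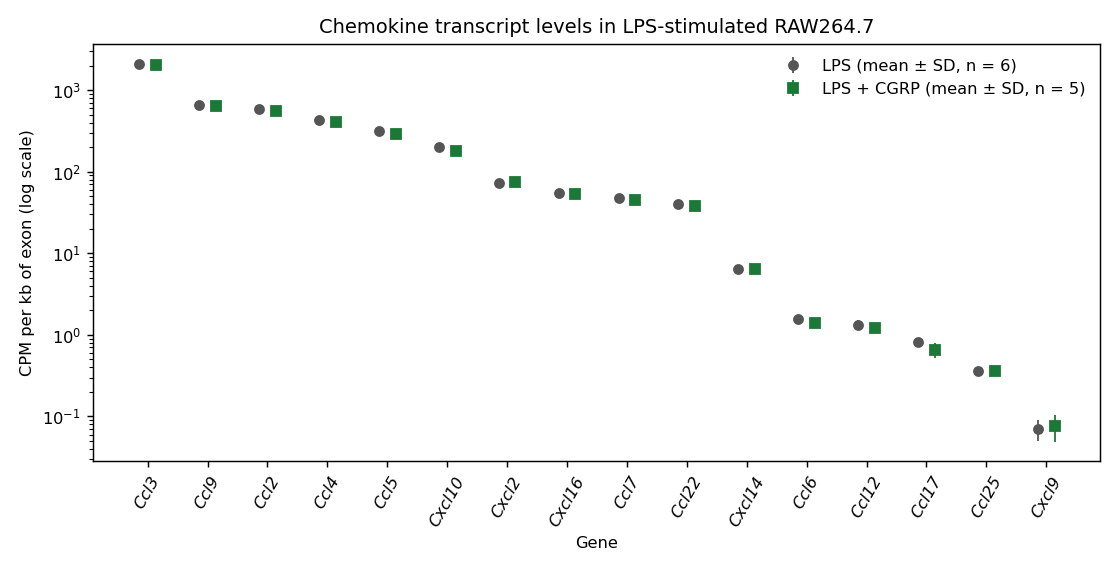
Transcript levels of the 16 tested chemokines in RAW264.7 macrophages. The y axis is CPM per kb of exon on a log scale, grey circles are the LPS group (n = 6) and green squares LPS with CGRP (n = 5), each as mean ± SD. Levels span from 2080 CPM per kb for Ccl3 to 0.0705 CPM per kb for Cxcl9, and the 2 groups nearly coincide for each gene.

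With CGRP, 1 of 16 members was called, Cxcl10, the interferon-induced ligand of Cxcr3, where limma called 0.0228% of 13164 genes. Cxcl10 (chr5:92346638-92348889, minus strand) stood at 444, 480, 435, 442, 464 and 450 CPM with LPS alone, in replicates 1 to 6, and at 398, 416, 405, 378 and 417 CPM with CGRP. Every CGRP library was below every LPS library. The log2 fold change was -0.17 ± 0.03, or 11.1% lower (SE, limma adjusted p = 0.0316). edgeR on reads recovered from the deposited values called 0 members and 0 genes, with 1348 genes at an unadjusted p under 0.05. DESeq2 on those reads called 4 members and 75 of 51912 genes. With 1 library left out the call was kept for 2 of 11 libraries, and the log2 fold change ranged from -0.18 to -0.15.

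The next 3 members by p had small differences of the same sign that did not pass. Ccl5 stood at 290 to 322 CPM (median 302) with LPS and at 272 to 287 CPM with CGRP, without overlap, a log2 fold change of -0.11 ± 0.02 (SE, limma adjusted p = 0.0852). Ccl4 stood at 275 to 299 CPM with LPS and 255 to 278 CPM with CGRP, a log2 fold change of -0.11 ± 0.02 (SE, limma adjusted p = 0.114). Ccl7 stood at 37.3 to 39.4 CPM and 35.0 to 37.0 CPM, without overlap, at -0.10 ± 0.02 (SE, limma adjusted p = 0.136). In all, 3 of 16 members were without overlap between the groups, against 1.12% of genes.

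In a cytokine array the study reported lower secretion with CGRP for the proteins of Ccl2, Ccl3, Ccl5, Ccl6, Ccl22 and Cxcl2. The array read conditioned medium collected later than the 6 h of the RNA, so the measures differ in molecule and time. In RNA, Ccl2 differed by -0.05 ± 0.02 (SE, limma adjusted p = 0.480), Ccl3 by -0.05 ± 0.02 (adjusted p = 0.422) and Ccl22 by -0.06 ± 0.03 (adjusted p = 0.468) on the log2 scale. Ccl6 differed by -0.11 ± 0.06 (SE, limma adjusted p = 0.583), at 2.26 to 3.25 CPM over all libraries. Cxcl2 was on the other side of 0, at 0.03 ± 0.03 (SE, limma adjusted p = 0.721), with 144 to 162 CPM with LPS and 148 to 158 CPM with CGRP. Over the 16 members, 14 were below 0 and 2 above, with a median of -0.06 against 0.00143 over all genes. By chromosome, all 9 members tested on chromosome 11 were below 0, at -0.11 to -0.01. So were all 3 on chromosome 8, at -0.14 to -0.01, and the 1 on chromosome 13. On chromosome 5 Cxcl10 was at -0.17 and the other 2 were above 0.

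**Figure D5:**
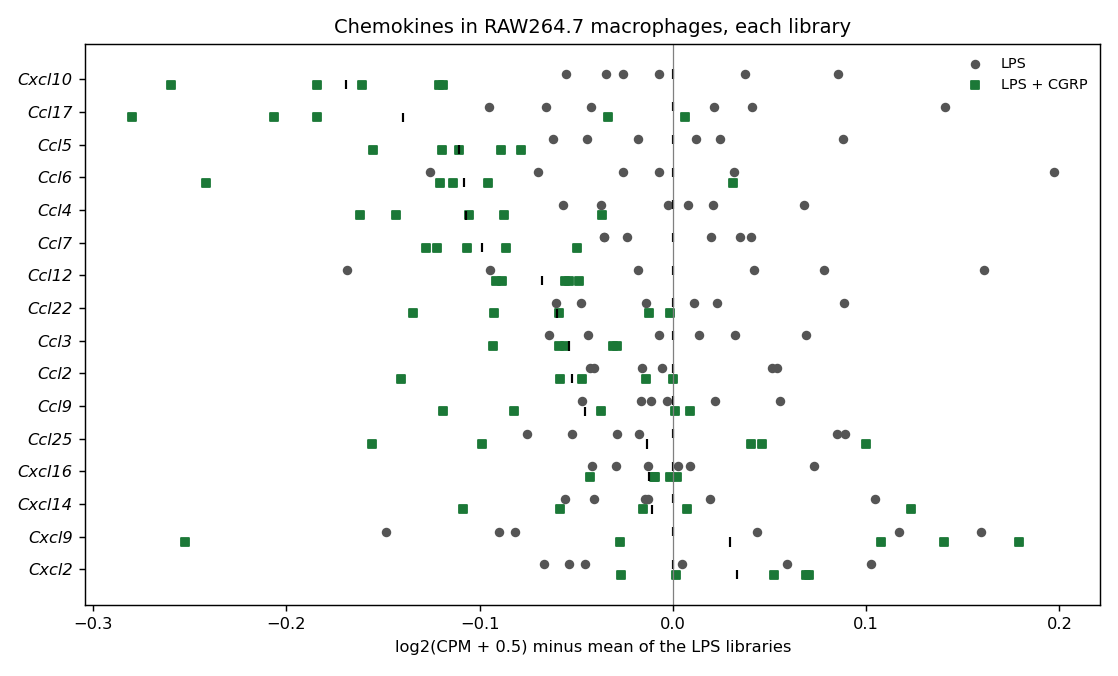
Each macrophage library relative to the mean of the LPS group for the 16 tested chemokines. The x axis is log2(CPM + 0.5) minus the LPS mean, grey circles are LPS libraries, green squares LPS with CGRP and black bars group means. The groups separate without overlap for Cxcl10, Ccl5 and Ccl7, and no difference between group means exceeds 0.17 in size.

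None of the 12 chemokine receptors tested in the macrophages was called by limma, nor were 2 other chemokines and the 1 scavenging receptor tested. Genes that were called between days in the rat had different standing in the macrophages: Ccl2 and Ccl5 were well expressed, Cxcl2 was expressed while Cxcl1 and Cxcl3 did not pass the filter, and Cxcl13 and Ccl11 had 0 reads.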

How the data were processed

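RNA-seq was analysed from 23 rats (6 groups of 3 or 4) and 11 macrophage samples (6 with LPS, 5 with LPS and CGRP). The deposited rat values are expected counts per gene, which the authors made from mRNA reads aligned with HISAT to mRatBN7.2 (Bowtie2 is also listed in the submitters' processing notes); the program that estimated the counts is not given in the sources used here. They were rounded to whole numbers. The deposited macrophage values are a signal, read counts that the authors obtained with Cutadapt, STAR (mm10) and featureCounts and multiplied by 1 factor for each of 2 runs per sample; the runs were summed. These values are not counts, so they were tested with limma.

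Rat genes were kept by filterByExpr, scaled by TMM and tested with edgeR 4.0.16 (quasi-likelihood, R 4.3.3), each comparison on its own groups; transection was also fitted with the day as a covariate and with an interaction. Macrophage CPM of at least 0.2 in at least 5 libraries were tested with limma 3.58.1 on log2(CPM + 0.5), so fold changes of low genes are understated. P-values were Benjamini-Hochberg adjusted over all genes tested, with a threshold of 0.05, and are two-sided. DESeq2 1.42.0, other scalings, filters and pseudocounts, a replicate block and leaving out each library were alternatives. On data simulated with the same dispersion for every gene, edgeR and limma kept their false calls near the threshold, and DESeq2 made more than its threshold allows. The simulation held no library far from its group, as some rat groups do, so it does not tell which method is right for these rats.

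The members, lists and alternatives were chosen with earlier results of these data known. Genes were named where they passed the threshold (up to 8 per comparison, or the 3 smallest p) or had the highest mean CPM of their group. In macrophages they were also named where the study had reported lower secretion of the protein with CGRP. Same-numbered samples did not all deviate together in any comparison (correlations of -0.389 to 0.488; in 0 of 10 comparisons was every pair above 0.1), so the numbers were not used to pair samples in the main fits. The labels do not say what the numbers mean, and a shared batch was not tested. No 2 libraries agreed within sampling noise. Columns of all samples were mapped by name, and promoters came from RefSeq (GRCr8). Tables were read with Python 3.11.15. Results of 1 receptor gene are not reported here.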

Additional observations from a re-analysis of the deposited data

Results flagged for a closer look

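In 128 groups of 4 to 6 samples, 4 held a sample whose distance to the nearest other sample was a large part of the range of its group (Dixon's test); chance does this in about 1 in 20 groups. Ccl5 stood at 8.16 CPM in sensory nerve+ replicate 3 of day 14, below the other 3 rats at 21.9 to 25.3 CPM. Cxcl9 stood at 2.31 CPM in sensory nerve+ replicate 3 of day 7, below the others at 9.49 to 11.2 CPM. Cxcl9 stood at 4.27 CPM in sensory nerve- replicate 3 of day 14, above the others at 1.97 to 2.11 CPM. Cxcl14 stood at 2.28 CPM in sensory nerve- replicate 2 of day 7, below the others at 13.3 to 18.03 CPM.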

How the results depend on the processing

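Each value here is a number of members called, unless it is said to be of all genes. No difference changed sign under an alternative for a called member. Transection on each day, pooled and as an interaction, and sensory nerve+ day 7 against day 14, gave 0 under every alternative run. For sensory nerve+ day 3 against day 7 (6), DESeq2 gave 13, the replicate block 2 and leaving out 1 library 0 to 6. Of all genes the main fit called 1002, DESeq2 2729, the block 122 and leaving out 1 library 254 to 1547. For sensory nerve+ day 3 against day 14 (2), DESeq2 gave 12, scaling by library total only 4, all 23 rats in 1 fit 10, the replicate block 0 and leaving out 1 library 0 to 8. Of all genes the main fit called 871, DESeq2 3409, library total only 547 and the fit of 23 rats 2605. The block called 0 genes and leaving out 1 library 0 to 3134. For sensory nerve- day 3 against day 7 (7), DESeq2 gave 12, the replicate block 0 and leaving out 1 library 0 to 4. Of all genes the main fit called 1523, DESeq2 3224, the block 2 and leaving out 1 library 0 to 1359. For sensory nerve- day 7 against day 14 (0), DESeq2 gave 5, all 23 rats in 1 fit 1 and leaving out 1 library 0 to 2. Of all genes the main fit called 2, DESeq2 1991, the fit of 23 rats 927 and leaving out 1 library 0 to 812. For sensory nerve- day 3 against day 14 (7), DESeq2 gave 13, all 23 rats in 1 fit 11, the replicate block 5 and leaving out 1 library 4 to 9. Of all genes the main fit called 3393, DESeq2 4922 and the fit of 23 rats 4227. The block called 2347 genes and leaving out 1 library 1619 to 4352. For CGRP (1), edgeR on recovered reads, a pseudocount of 1, no filter and the second run alone each gave 0, DESeq2 on recovered reads gave 4, the replicate block 2 and leaving out 1 library 0 to 2: 0 without LPS replicate 1, 2, 3 or 5 or any of the 5 LPS+CGRP replicates, and 2 without LPS replicate 6. Of all genes the main CGRP fit called 3, DESeq2 75, the replicate block 25 and leaving out 1 library 0 to 21. The recovered reads were whole for 100% of values, within a tolerance of 0.1. The cause of these shifts was not tested. The labels do not say whether replicate numbers mark a shared animal or batch, so the block is not read as a paired analysis. Groups of 3 or 4 rats and low counts (Ccl4 and Ccl17) limit the precision.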
